A study of Mus musculus with 14 samples.

Results

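The genes described here are 6 members of the THAP family, Thap1, Thap2, Thap3, Thap4, Thap7 and Thap11, and 4 genes whose proteins are known partners of THAP1 or of its complex, Hcfc1, Ogt, Yy1 and Pawr. They were taken by name, and all 10 were found among the 23337 gene symbols of the count tables. RNA was sequenced from microdissected mouse brain at 6 months of age on a C57Bl/6 background, in 14 libraries. The groups were striatum of Thap1 conditional knockout (cKO) mice with 3 libraries, striatum of wildtype (WT) mice with 3, cerebellum of cKO mice with 4 and cerebellum of WT mice with 4. The wildtype controls were littermates. The sources used here give neither the Cre driver, nor the cells it acts in, nor the deleted part of Thap1. They also do not state that every library came from a different animal, or whether striatum and cerebellum came from the same mice. The main tests between tissues and of the interaction treat all libraries as independent. By Xist and Y-linked genes each group held male and female libraries, so no group came from a single animal. P-values reflect the spread between libraries, part of which may be technical.

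THAP proteins bind DNA through the THAP domain, a zinc-coordinating fold of the C2CH type. Mutations of human THAP1 cause the movement disorder DYT6 dystonia. Several THAP proteins carry a short motif that binds the scaffold protein HCF1, the product of Hcfc1, which brings chromatin-modifying complexes to promoters. HCF1 in turn binds O-GlcNAc transferase, the product of Ogt, which adds the sugar GlcNAc to nuclear and cytoplasmic proteins and also cleaves HCF1. YY1 is a zinc finger factor that shares target genes with THAP1 in the oligodendrocyte lineage, and PAWR is a pro-apoptotic protein first linked to THAP1 through its binding in nuclear bodies.

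On GRCm38, the assembly also called mm10, Thap1 lies at chr8:26158141-26164151 on the plus strand and has 2915 bp of annotated exon. Thap11 lies on the same chromosome at chr8:105855132-105856950 and consists of 1 exon block. Thap2 and Pawr are both on chromosome 10, and Hcfc1 and Ogt are both on the X chromosome, at chrX:73942792-73966357 and chrX:101640060-101684351. Thap3 is at chr4:151982639-151988997, Thap4 at chr1:93701935-93754864, Thap7 at chr16:17527982-17531136 and Yy1 at chr12:108792973-108820148. Exons of Thap4 share 688 bp, or 10.6% of their length, with the antisense gene Gm10550, and exons of Thap1 share 45 bp with Gm45692 on the same strand. Whether reads were counted by strand is not stated, so the Thap4 count may include antisense reads.

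A promoter window, from 250 bases before to 50 bases after the annotated start, was held by the RefSeq table used here (GRCm38.p6) for 9 of the 10 genes, in 11 windows. Thap1 is the exception. Each window was searched on both strands for TNNNGGCA, the core letters of the THAP1 site, for GCCAT, the core of the YY1 site, and for the ACTACA-type element bound by THAP11 and ZFP143. TNNNGGCA occurred in windows of 5 genes, against 41.9% of 32544 promoters of the same length. GCCAT occurred in 7 genes, against 40.6% of promoters, and the ACTACA-type element in 1 gene, against 1.02%. These shares count single windows, whereas a gene counts here if any of its windows matches. Thap4 and Ogt have more than 1 window each and so had more chances of a match. Of the 5 THAP genes with a window, 3 held TNNNGGCA, and those windows are shown, with capitals marking each match. In the Thap3 window (chr4:151988937-151989236, minus strand) TNNNGGCA begins 5 bases after the start and GCCAT ends 2 bases before it. In the Thap4 window shown (chr1:93731877-93732176, minus strand) the first capitals are the ACTACA-type element and the second are TNNNGGCA read on the opposite strand. That window lies inside the annotated gene. Another Thap4 window, chr1:93754789-93755088, lies at the 5' end of the gene. It held GCCAT but neither TNNNGGCA nor the ACTACA-type element. In the Thap11 window (chr8:105854853-105855152, plus strand) TNNNGGCA on the opposite strand and GCCAT overlap in a single run of capitals.
Thap3: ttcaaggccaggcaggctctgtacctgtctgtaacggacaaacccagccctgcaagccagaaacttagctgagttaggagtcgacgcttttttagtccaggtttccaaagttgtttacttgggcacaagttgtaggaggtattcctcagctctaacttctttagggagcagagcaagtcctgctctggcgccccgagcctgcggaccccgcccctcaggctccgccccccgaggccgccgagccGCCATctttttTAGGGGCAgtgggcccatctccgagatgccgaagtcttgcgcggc
Thap4: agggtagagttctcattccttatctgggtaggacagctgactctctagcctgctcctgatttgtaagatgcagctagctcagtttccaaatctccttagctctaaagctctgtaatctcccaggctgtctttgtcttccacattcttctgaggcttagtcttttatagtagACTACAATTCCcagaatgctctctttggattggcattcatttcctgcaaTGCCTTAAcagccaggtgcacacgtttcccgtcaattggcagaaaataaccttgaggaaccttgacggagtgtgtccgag
Thap11: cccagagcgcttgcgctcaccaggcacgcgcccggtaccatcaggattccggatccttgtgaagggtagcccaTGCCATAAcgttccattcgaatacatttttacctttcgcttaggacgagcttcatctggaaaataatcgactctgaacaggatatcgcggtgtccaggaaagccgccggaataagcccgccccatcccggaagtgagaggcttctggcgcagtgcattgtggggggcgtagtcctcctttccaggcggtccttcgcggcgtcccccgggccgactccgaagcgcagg
These matches describe letters in the windows. No measurement of binding was analysed here.

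Library totals were 12659013 to 14258141 counts in cKO striatum, 12595941 to 13499875 in WT striatum, 19860775 to 28099205 in cKO cerebellum and 19458954 to 24331760 in WT cerebellum. Levels are given as CPM, counts scaled to a common library size by TMM factors over all 14 libraries, and as CPM per kilobase of exon where genes are compared with each other. The dissections matched their labels: the summed level of 9 striatal neuron markers was 9608 to 11849 CPM in striatum and 340 to 410 CPM in cerebellum, and that of 10 cerebellar neuron markers was 398 to 511 CPM in striatum and 7452 to 8648 CPM in cerebellum. WT striatum replicate 1 stood apart from every other library. Its longest genes by exon length exceeded its shortest, as medians of the outer 20% of genes at each end, by 0.67 on the log2 scale relative to its group, against −0.34 and −0.36 in the other WT striatum libraries and −0.05 to 0.06 in the rest. Each library was set against the mean of the others in its group, so replicate 1 is part of the reference behind −0.34 and −0.36. Replicate 1 was the highest WT striatum library for Thap2, Hcfc1 and Ogt and the lowest for Thap1, Thap3, Thap4, Thap7, Thap11 and Pawr. By Xist and Y-linked genes it was also the 1 male library of the 3 in WT striatum, as replicate 1 was the 1 male library in cKO striatum, while replicates 1 and 2 were the males in both cerebellar groups. The other male libraries had length differences of −0.04 to 0.03. Leaving replicate 1 out therefore also removes the male of WT striatum. Counts of calls that use it are also given without it.

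**Figure D1:**
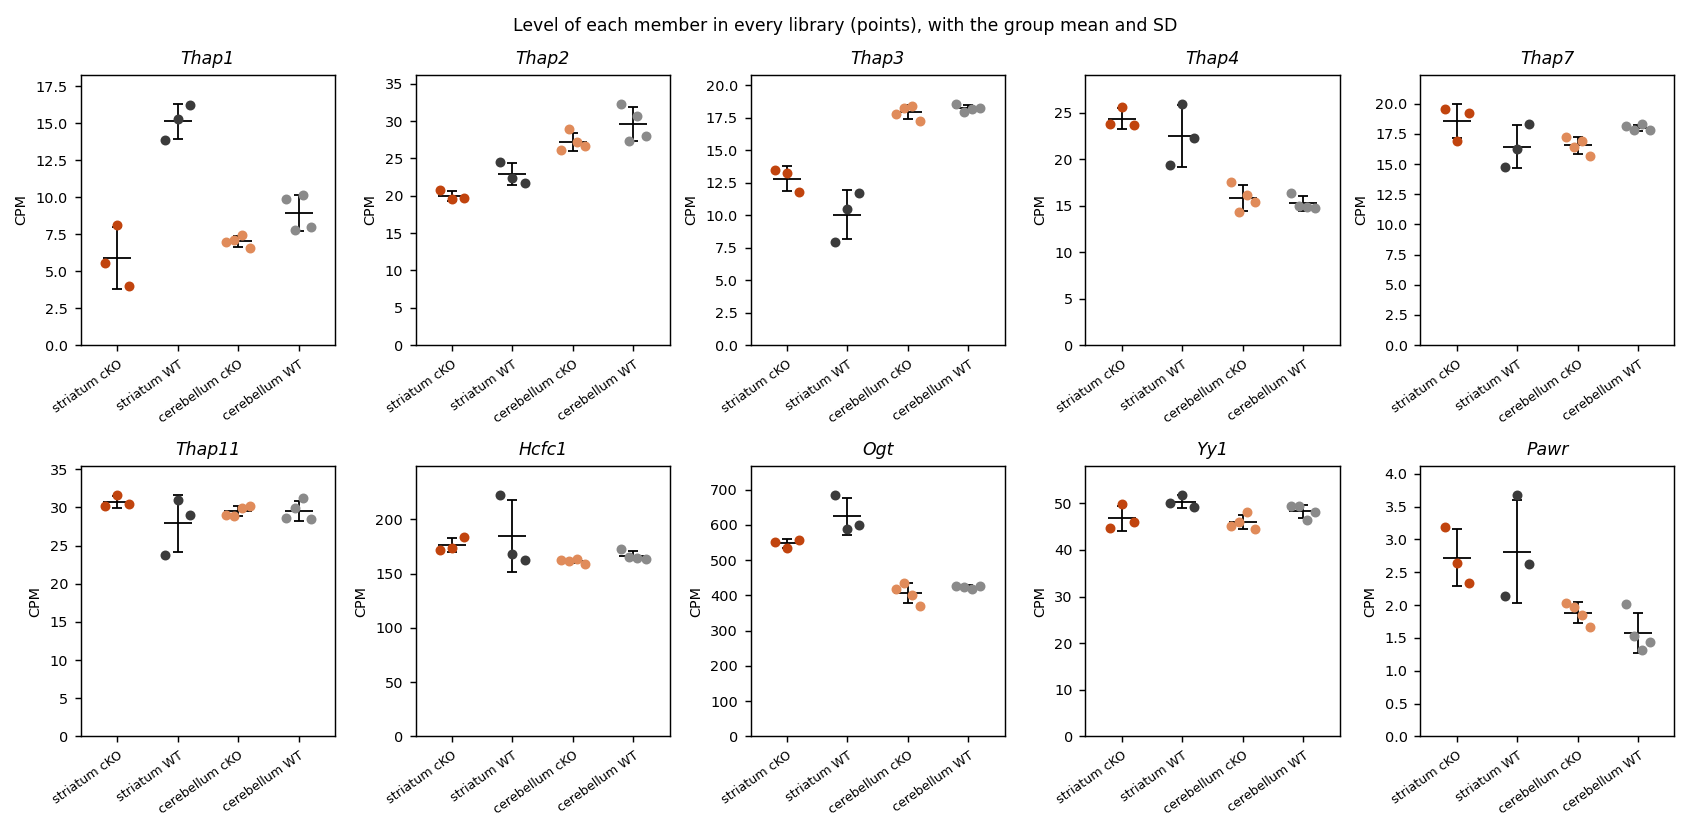
Level of each gene in CPM (vertical axes, from 0) in the libraries of the 4 groups. Points are libraries, and bars are the group mean and SD (n = 3 in striatum, n = 4 in cerebellum). Thap1 lies lower in cKO striatum, 4.00 to 8.09 CPM, than in WT striatum, 13.9 to 16.3 CPM, while most other panels show points of cKO and WT at similar heights.

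The first comparison asked what the conditional knockout does to Thap1 itself, which also checks the labels. In striatum Thap1 measured 5.58, 8.09 and 4.00 CPM in the cKO libraries, against 13.9, 15.3 and 16.3 CPM in the WT libraries. The groups did not overlap, and the highest cKO library was replicate 2. The cKO mean, 5.89 ± 2.07 CPM, was 38.9% of the WT mean, 15.1 ± 1.2 CPM (SD, n = 3 each). The log2 fold change was −1.36 with a standard error (SE) of 0.23 and a 95% interval of −1.89 to −0.84. By edgeR's quasi-likelihood test its unadjusted p was 0.000224 and its Benjamini-Hochberg adjusted p over all genes was 0.0562, short of the 0.05 threshold used for a call. Without WT striatum replicate 1 the log2 fold change was −1.42 with an adjusted p of 0.0248. For the CPM difference of −9.24, the exact permutation test (two-sided) gave p = 0.1, the smallest that 3 against 3 libraries allow. In these bulk samples, fewer cells that express a gene and less of its RNA per cell cannot be told apart.

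In cerebellum Thap1 measured 6.99, 7.10, 7.42 and 6.55 CPM in cKO, against 9.87, 7.81, 10.1 and 7.99 CPM in WT. Every cKO library lay below every WT library, and cKO replicate 3 came nearest to the WT range. The means were 7.02 ± 0.360 CPM in cKO and 8.95 ± 1.21 CPM in WT (SD, n = 4 each), so cKO cerebellum held 78.4% of the WT level. Thap1 fell with a log2 fold change of −0.34 (SE 0.10, 95% interval −0.55 to −0.13) and an adjusted p of 0.0488 by edgeR's quasi-likelihood test. The exact permutation test of the CPM difference gave p = 0.0286, the smallest that 4 against 4 allow. That edgeR call was lost when WT replicate 1 or 3, or any single cKO replicate, was left out, with adjusted p from 0.0659 to 0.17. DESeq2 and voom did not make it either, with adjusted p of 0.0569 and 0.0625. Reads from exons that the deletion leaves in place would still be counted for Thap1, so its level is not a measure of functional transcript.

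The difference between the tissues was tested in 1 model of all 14 libraries. The striatal minus the cerebellar log2 fold change of Thap1 was −1.01 (SE 0.24, 95% interval −1.51 to −0.51), with an unadjusted p of 0.000614 and an adjusted p of 0.0884 by edgeR. Leaving out WT striatum replicate 1 gave an adjusted p of 0.0496, and leaving out cKO striatum replicate 2 gave −1.30 with an adjusted p of 0.0113. None of the 10 genes was called in this comparison, where 0.39% of 15401 genes were called. At an unadjusted p under 0.05 there were 3, Thap1, Thap3 and Thap7, against 11.6% of all genes. DESeq2 and voom each called 1 of the 10 genes, Thap1.

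Markers of mature oligodendrocytes, the myelin-forming cells in which Thap1 and Yy1 have been studied, moved with genotype. Their summed level over 10 genes was 4980 to 6181 CPM in cKO striatum, against 7809 to 9493 CPM in WT striatum, and 4260 to 4793 CPM in cKO cerebellum, against 4912 to 5463 CPM in WT cerebellum. Of the 10 markers, 4 were called lower in cKO striatum and 7 in cKO cerebellum. Over all genes tested, 0.384% were called in striatum and 7.59% in cerebellum, where 4.96% were called lower, so these counts have unlike backgrounds. The WT striatal sums were 7809 to 8780 CPM without WT striatum replicate 1, and 6 of the 10 were then called lower in cKO striatum. Choroid plexus markers summed to 51.4 to 203 CPM in cKO striatum, against 38.0 to 55.6 CPM in WT striatum (38.0 to 49.4 CPM without replicate 1), and to 716 to 3466 CPM in cKO cerebellum, against 39.1 to 2129 CPM in WT cerebellum, with none of 7 called. Among the other lists, 3 of 8 astrocyte markers were called higher and 2 lower in cKO cerebellum, 1 of 10 cerebellar neuron markers was called lower there, and no marker of microglia, endothelium or striatal neurons was called in either tissue. In striatum 1 of 8 astrocyte markers was called higher in cKO when WT replicate 1 was left out. The part of any of these in the results for Thap1 and its partners was not tested.

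Among the other THAP genes in striatum, none passed the test between genotypes. Thap3, which binds HCF1 and OGT in human cells, measured 13.5, 13.2 and 11.75 CPM in cKO, against 7.96, 10.5 and 11.69 CPM in WT. The lowest cKO library lay barely above the highest WT library, and WT replicate 1 was the lowest of all. The log2 fold change of Thap3 was 0.35 (SE 0.17, 95% interval −0.03 to 0.72, adjusted p 0.725), and 0.21 without WT replicate 1. Thap2 measured 20.8, 19.6 and 19.7 CPM in cKO, against 24.5, 22.4 and 21.7 CPM in WT, with no overlap. The change in Thap2 was −0.20 on the log2 scale (SE 0.11, adjusted p 0.756).

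Thap7 encodes a transcriptional repressor that binds histone tails. It measured 19.6, 16.9 and 19.2 CPM in cKO striatum, against 14.7, 16.3 and 18.3 CPM in WT striatum, and the ranges overlapped. Its log2 fold change was 0.17 (SE 0.13, adjusted p 0.782). Thap11, also called Ronin, is an HCF1-binding factor needed by embryonic stem cells. Its 30.2, 31.7 and 30.4 CPM in cKO overlapped the 23.8, 30.9 and 29.0 CPM in WT. The spread among WT libraries came mainly from replicate 1, and the log2 fold change of Thap11, 0.13 (SE 0.12, adjusted p 0.803), was 0.04 without it. Thap4, whose protein also carries a haem-binding nitrobindin domain, measured 23.8, 25.6 and 23.7 CPM in cKO and 19.3, 26.0 and 22.3 CPM in WT, with overlap, and a log2 difference of 0.11 (SE 0.13, adjusted p 0.835).

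The partner genes were likewise not called in striatum. Ogt measured 552, 534 and 558 CPM in cKO, against 685, 588 and 599 CPM in WT. All cKO libraries lay below all WT libraries, and WT replicate 1 was the highest. The log2 fold change of Ogt was −0.19 (SE 0.093, 95% interval −0.41 to 0.02, adjusted p 0.725), and −0.11 without that library. Hcfc1 measured 171.5, 173.5 and 183.7 CPM in cKO, against 222.7, 168.3 and 162.9 CPM in WT, so a single WT library was above the cKO range and the other two were below it. The log2 fold change of Hcfc1 was −0.07 (SE 0.13, adjusted p 0.883) and turned to 0.09 without WT replicate 1.

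Yy1 ranged from 44.7 to 49.8 CPM in cKO striatum, against 49.2 to 51.8 CPM in WT striatum. The highest cKO library, replicate 2, reached into the WT range. The log2 fold change of Yy1 was −0.11 (SE 0.092, adjusted p 0.793). Pawr was the least abundant of the 10 genes by CPM, at 3.19, 2.64 and 2.33 CPM in cKO and 2.14, 3.68 and 2.63 CPM in WT, with 25 to 47 counts per striatal library. The 95% interval of its log2 fold change of −0.06, from −0.66 to 0.55, is the widest of the 10. Changes anywhere within that interval are compatible with these 3 libraries a group. The coefficient of variation of Pawr in WT striatum was 28.0%, against 17.5% from counting alone.

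In all, 0 of the 10 genes passed an adjusted p of 0.05 in striatum, where 0.384% of 14080 genes did, and 1 of 10, Thap1, had an unadjusted p under 0.05, against 7.24% of all genes. DESeq2 and voom each called 1 gene, Thap1. The genotypes did not overlap for 4 of the 10 genes, 1 higher (Thap3) and 3 lower (Thap1, Thap2 and Ogt) in cKO. Among all genes tested 15.1% did not overlap, 7.24% higher and 7.88% lower. The median log2 fold change over the 10 genes was −0.06, against 0.00 over all genes tested. Without WT striatum replicate 1, striatal log2 fold changes of the genes not yet given that way were −0.14 for Thap2, 0.01 for Thap4, 0.11 for Thap7, −0.11 for Yy1 and −0.21 for Pawr, none of them called. Thap1 was then the 1 gene of 10 called, and 122 genes were called in all.

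**Figure D2:**
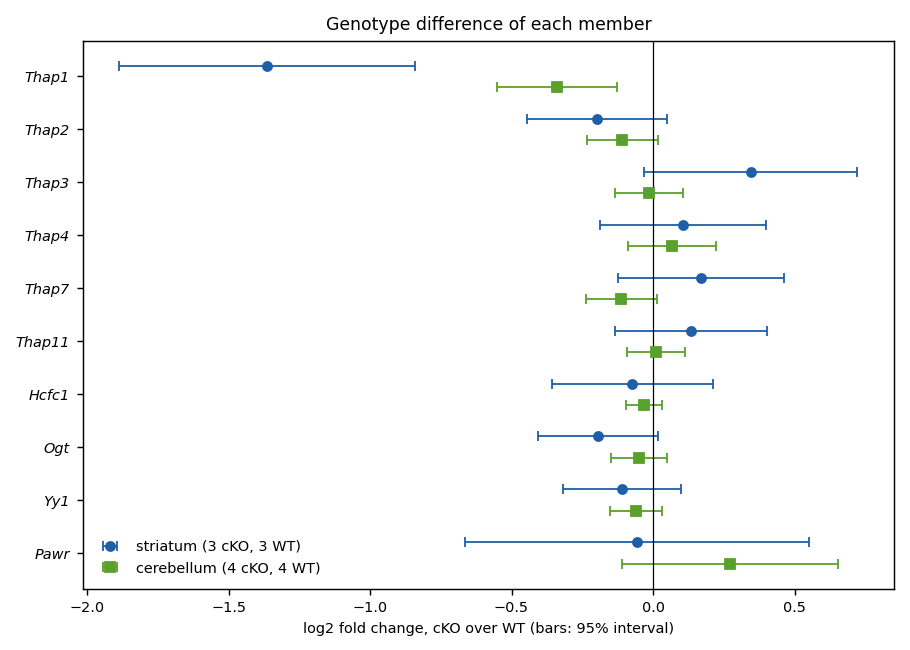
Log2 fold change of each gene, cKO over WT, in striatum and in cerebellum, with 95% intervals from edgeR's quasi-likelihood fit. Thap1 has the most negative value in both tissues, −1.36 in striatum and −0.34 in cerebellum, and the intervals of the other 9 genes include 0.

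In cerebellum the intervals were narrower. Thap7 measured 17.2, 16.4, 16.9 and 15.7 CPM in cKO, against 18.1, 17.8, 18.3 and 17.9 CPM in WT, and the groups did not overlap. Its log2 fold change was −0.11 (SE 0.059, 95% interval −0.24 to 0.01, adjusted p 0.282). Thap2 measured 26.2, 28.9, 27.2 and 26.6 CPM in cKO and 32.3, 27.4, 30.6 and 28.0 CPM in WT, with overlap, and its log2 fold change was −0.11 (SE 0.059, adjusted p 0.297). Thap3 averaged 17.9 ± 0.525 CPM in cKO and 18.2 ± 0.272 CPM in WT, and Thap11 averaged 29.5 ± 0.679 CPM in cKO and 29.6 ± 1.31 CPM in WT (SD, n = 4 each). Both pairs of groups overlapped, with log2 fold changes of −0.02 and 0.01. Thap4 averaged 15.8 ± 1.37 CPM in cKO and 15.2 ± 0.769 CPM in WT, a log2 fold change of 0.07 (adjusted p 0.647).

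Of the partner genes in cerebellum, Hcfc1 measured 162.2, 161.3, 163.9 and 159.0 CPM in cKO, against 172.9, 165.1, 164.3 and 163.7 CPM in WT. The highest cKO library lay just inside the WT range, and the 95% interval of the log2 fold change was −0.10 to 0.03, the narrowest of the 10 genes. Ogt averaged 406 ± 28.1 CPM in cKO and 424 ± 4.47 CPM in WT, and the cKO libraries, 370 to 436 CPM, spanned the whole WT range. Its log2 fold change was −0.05 (SE 0.047, adjusted p 0.574). Yy1 averaged 46.0 ± 1.54 CPM in cKO and 48.3 ± 1.41 CPM in WT (log2 fold change −0.06, adjusted p 0.449). Pawr measured 2.03, 1.97, 1.86 and 1.67 CPM in cKO, against 2.01, 1.52, 1.31 and 1.43 CPM in WT, from 30 to 49 counts per library. Its log2 fold change was 0.27 with a 95% interval of −0.11 to 0.65 (adjusted p 0.404).

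Thap1 was thus the 1 gene of 10 called in cerebellum, where 7.59% of 14775 genes were called and 4.96% were called lower. The genotypes did not overlap for 2 of the 10 genes, Thap1 and Thap7, both lower in cKO, against 14.2% of all genes, 9.03% of them lower. The median log2 fold change was −0.04 over the 10 genes and 0.00 over all genes. For Thap3 and Thap7 the striatal minus cerebellar difference in log2 fold change was 0.38 (SE 0.15, adjusted p 0.337) and 0.30 (SE 0.12, adjusted p 0.361) by edgeR. The remaining 7 genes had adjusted p of 0.636 or more in that comparison. Without WT striatum replicate 1 the differences were 0.23 for Thap3 and 0.22 for Thap7.

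The WT libraries show how the family is set in each tissue without the deletion. Striatum exceeded cerebellum for Thap1, at 15.1 ± 1.2 CPM against 8.95 ± 1.21 CPM in cerebellum (SDs over 3 and 4 libraries). No striatal library overlapped a cerebellar one, and the log2 difference, striatum over cerebellum, was 0.78 (SE 0.13, adjusted p 0.000459 by edgeR). Thap4 was higher in striatum by 0.58 (SE 0.11, adjusted p 0.00115), from 22.5 ± 3.33 CPM in striatum and 15.2 ± 0.769 CPM in cerebellum. Ogt was higher in striatum by 0.58 (SE 0.078, adjusted p 0.00012), from 624 ± 53.3 CPM in striatum and 424 ± 4.47 CPM in cerebellum.

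Pawr, whose protein is known to bind the dopamine D2 receptor, averaged 2.82 ± 0.787 CPM in striatum and 1.57 ± 0.307 CPM in cerebellum. The log2 difference was 0.87 (SE 0.25, adjusted p 0.0111), and without WT striatum replicate 2, its highest library, the value was 0.63 with an adjusted p of 0.0624. Both genes that were lower in striatum belong to the THAP family. Thap3 averaged 10.05 ± 1.90 CPM in striatum and 18.2 ± 0.272 CPM in cerebellum, a log2 difference of −0.84 (SE 0.13, adjusted p 0.000244). Thap2 averaged 22.9 ± 1.46 CPM in striatum and 29.6 ± 2.32 CPM in cerebellum, a log2 difference of −0.35 (SE 0.094, adjusted p 0.00869).

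The other 4 genes did not pass the test, with log2 differences of −0.11 for Thap7, −0.06 for Thap11, 0.17 for Hcfc1 and 0.08 for Yy1. Thus 6 of the 10 genes were called, 4 higher and 2 lower in striatum, against 64.2% of 15031 genes, 31.5% higher and 32.7% lower. Tissues did not overlap for 6 of 10 genes, 4 higher and 2 lower, against 65.8% of all genes, 30.5% higher and 35.3% lower. Both shares are near the background, since most genes differ between these tissues. Without WT striatum replicate 1 the same number of members, 6, were called, with Thap1 at 0.82, Thap4 at 0.67, Ogt at 0.49, Pawr at 1.02, Thap2 at −0.42 and Thap3 at −0.71. Hcfc1 and Thap11, not called with or without it, changed sign. Without TMM scaling, on library totals alone, the median of all genes shifted by −0.17, and Thap7 was then also called, at −0.28 (adjusted p 0.0349).

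**Figure D3:**
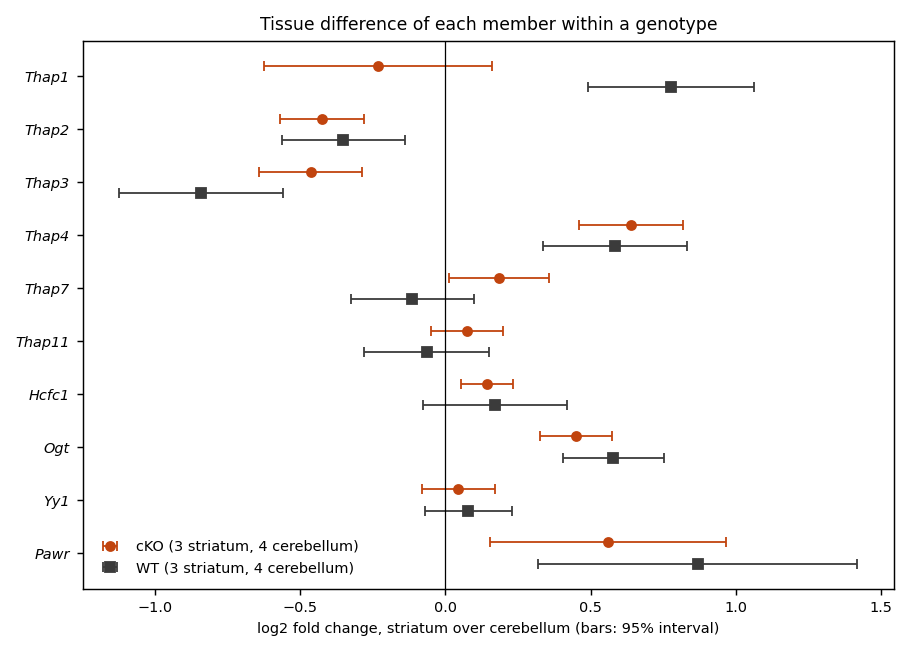
Log2 difference of each gene, striatum over cerebellum, in cKO libraries and in WT libraries, with 95% intervals from edgeR's quasi-likelihood fit. Thap1 lies at −0.23 in cKO and at 0.78 in WT, while Thap2, Thap3, Thap4, Ogt and Pawr lie on the same side of 0 in both genotypes.

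The same tissue comparison in the cKO libraries, which are other samples, was added after the WT differences had been seen. There 6 of the 10 genes were called, against 74.4% of 15080 genes. Of the 6 genes called in WT, 5 were called in the same direction in cKO. Thap4 was higher in striatum by 0.64 (adjusted p 8.21e-06), Ogt by 0.45 (adjusted p 7.82e-06) and Pawr by 0.56 (adjusted p 0.0153). Thap2 and Thap3 were lower in striatum, with log2 differences of −0.43 (adjusted p 5.45e-05) and −0.46 (adjusted p 0.000152). Hcfc1, at 0.14 (adjusted p 0.00632), was called higher in cKO striatum but not in WT.

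Thap1 was the gene called in WT and not in cKO. Its striatal mean was 0.840 times its cerebellar mean in cKO and 1.69 times in WT. The log2 difference in cKO was −0.23 (SE 0.18, 95% interval −0.62 to 0.16, adjusted p 0.260), and the tissues overlapped, with 4.00 to 8.09 CPM in striatum and 6.55 to 7.42 CPM in cerebellum. The test of whether the tissue difference depends on genotype is the interaction given above, with an adjusted p of 0.0884.

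Levels per kilobase of exon ordered the 10 genes. In all 4 groups Ogt came first, at 68.1 CPM per kb in cKO striatum, 77.5 in WT striatum, 50.5 in cKO cerebellum and 52.7 in WT cerebellum. Hcfc1 came next, at 19.3 to 22.1 CPM per kb, and then Thap11, at 15.3 to 16.9 CPM per kb. Ranges of these 3 genes did not overlap within any group, so Thap11 stood highest of the 6 THAP members in every group. Prkrir, the earlier symbol of the THAP gene Thap12 and no member here, was above it, at 25.2 CPM per kb in cKO striatum, 24.7 in WT striatum, 34.6 in cKO cerebellum and 35.4 in WT cerebellum. Pawr came last, at 0.900 to 1.61 CPM per kb. Where exon use differs from the annotated union, a per-length level is off by that factor.

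The order between these ends differed by group. Thap1 had rank 9 of 10 in cKO striatum, at 2.02 CPM per kb, and rank 7 in WT striatum, at 5.19 CPM per kb, above Thap2 and Thap4. In cerebellum it had rank 9 in cKO, at 2.41 CPM per kb, and rank 8 in WT, at 3.07 CPM per kb. In cKO striatum its range overlapped that of Pawr, the next gene in the order, and in cKO cerebellum that of Thap4, the one before. In WT libraries of either tissue Thap1 overlapped neither neighbour. Thap3 had rank 5 in cKO striatum, at 9.61 CPM per kb, where it overlapped Thap7, and rank 6 in WT striatum, at 7.53 CPM per kb, where it overlapped Yy1. When WT replicate 1 was left out, Thap3 had rank 5 in WT striatum too, at 8.31 CPM per kb, above Yy1 at 7.87, and the ranks of the other 8 genes, Thap1 included, were as before. It had rank 4 in cerebellum, at 13.4 CPM per kb in cKO and 13.7 CPM per kb in WT.

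**Figure D4:**
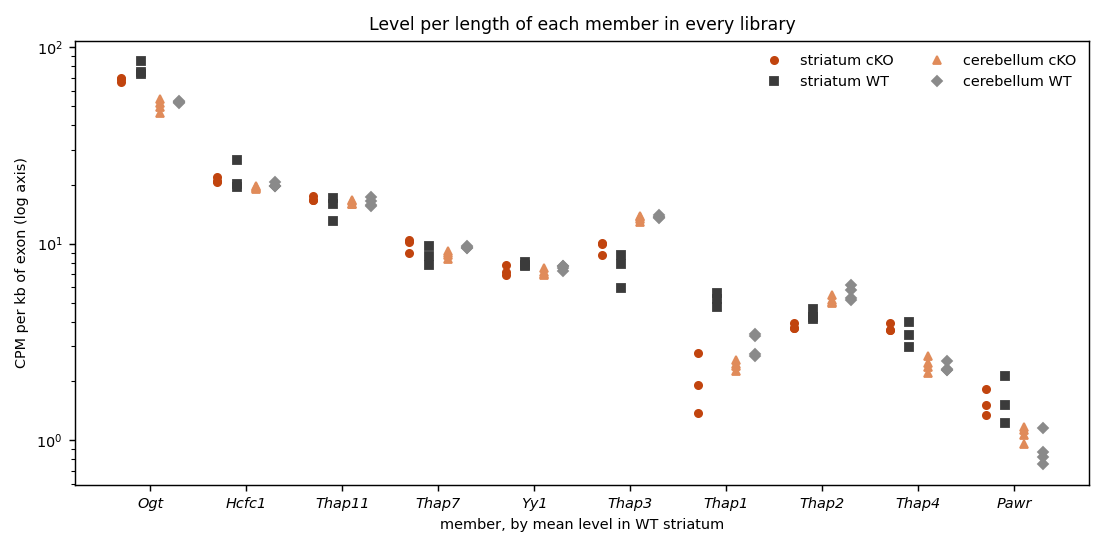
Level of each gene in CPM per kilobase of exon (vertical log axis) in the 4 groups. Points are libraries, and genes run from left to right by their mean in WT striatum. Ogt is highest in all groups, with group means of 50.5 to 77.5 CPM per kb, and Pawr is lowest, with group means of 0.900 to 1.61 CPM per kb.

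The genes whose pattern over the 14 libraries was most like that of Thap1 were sought among 13120 genes with a mean of at least 1 CPM in each tissue, by the root mean square difference in log2 CPM after centring each gene. They were Il17rb at 0.217, Skap2 at 0.264, Emilin2 at 0.279, Opalin at 0.283 and Tspan2 at 0.288, where the median gene was at 0.619. Il17rb, a subunit of an interleukin receptor, averaged 0.778 CPM in cKO striatum, 2.42 in WT striatum, 1.30 in cKO cerebellum and 1.35 in WT cerebellum. Emilin2, an extracellular matrix glycoprotein, averaged 5.63 CPM in cKO striatum, 11.2 in WT striatum, 5.87 in cKO cerebellum and 6.07 in WT cerebellum. Neither was called between genotypes in cerebellum, with log2 fold changes of −0.04 each (adjusted p 0.944 and 0.893). Skap2, a Src kinase adaptor, averaged 8.39 CPM in cKO striatum, 17.0 in WT striatum, 8.68 in cKO cerebellum and 10.9 in WT cerebellum. Opalin, a membrane protein of myelinating oligodendrocytes and among the 10 markers above, averaged 7.42 CPM in cKO striatum, 15.3 in WT striatum, 7.75 in cKO cerebellum and 9.89 in WT cerebellum. Tspan2, a tetraspanin of oligodendrocytes, averaged 106 CPM in cKO striatum, 217 in WT striatum, 144 in cKO cerebellum and 153 in WT cerebellum. By edgeR, Skap2 and Tspan2 were called lower in cKO striatum (adjusted p 0.0437 and 0.0335). Il17rb, Emilin2 and Opalin were not (0.0629, 0.330 and 0.414). In cerebellum Skap2 and Opalin were called lower (0.0488 and 0.0394), and Tspan2 was not (0.227). Without WT striatum replicate 1, Il17rb was also called in striatum (0.0495), and Emilin2 and Opalin were still not (0.344 and 0.126). The same libraries picked these genes, so the calls are not independent. With WT striatum replicate 1 left out, the 5 nearest were Il17rb, Opalin, Smtnl2, Skap2 and Xaf1, so Emilin2 and Tspan2 are among the nearest only with that library. A gene that never varied would lie at 0.535 on this measure. The partner and family genes ranged from 0.489 for Yy1 to 0.764 for Thap3, and 3 of them lay below that value. These were Yy1 (rank 612 of 13120), Ogt at 0.495 (rank 722) and Hcfc1 at 0.526 (rank 1786). Without WT striatum replicate 1 an unvarying gene would lie at 0.516, and 2 lay below it. They were Yy1 at 0.472 (rank 490) and Ogt at 0.510 (rank 1796). None was shown to follow Thap1, but a gene that followed it with small changes would also lie near an unvarying gene. This measure is a description over libraries that share depth, tissue and genotype.

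Genes around these proteins were counted in 7 lists. The other THAP genes in the tables, Thap6 and Prkrir (an earlier symbol of Thap12), were not called between genotypes in either tissue. Of 18 genes for the HCF1 paralogue and HCF1-bound factors, 0 were called in either tissue, with median log2 fold changes of −0.10 in striatum and −0.03 in cerebellum. Of 17 subunits of the SET1/MLL and SIN3 complexes, which HCF1 tethers, 0 were called in striatum and 1 was lower in cKO cerebellum. That gene was Suds3, a SIN3 subunit, with a log2 fold change of −0.11 (adjusted p 0.0488).

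Of 9 genes in a list of O-GlcNAc removal, hexosamine synthesis and the OGT-binding TET enzymes, 0 were called in striatum (median −0.17) and 1 was lower in cerebellum (median 0.05). It was Tet3, a 5-methylcytosine dioxygenase that binds OGT, with a log2 fold change of −0.15 (adjusted p 0.0483). Of 25 genes for the YY1 paralogue and for YY1 partners of the INO80 and Polycomb complexes, 0 were called in striatum. In cerebellum Actr8 rose by 0.18 (adjusted p 0.0194) and Nfrkb, also of INO80, fell by 0.15 on the log2 scale (adjusted p 0.0482). Of the genes for PAWR-binding proteins, 0 of 12 tested were called in striatum and 0 of 10 in cerebellum. Leaving out WT striatum replicate 1, 0 genes of these 6 lists were called in striatum, with medians from −0.10 to 0.04. The median of all genes tested was 0.00 in both tissues, and the called shares to read these counts against are 0.384% in striatum and 7.59% in cerebellum.

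Candidate THAP1 targets formed a list of 5 measured genes that was drawn up with earlier results of these data known and is not independent evidence of direction. In striatum 2 were lower in cKO, 1110034G24Rik (log2 fold change −2.42, adjusted p 0.00527) and Gusb, the lysosomal enzyme beta-glucuronidase (−1.24, adjusted p 0.0251). In cerebellum 3 were lower in cKO, 1110034G24Rik (−2.73, adjusted p 1.35e-09), Gusb (−1.37, adjusted p 7.21e-07) and Psmb5, a catalytic proteasome subunit (−0.78, adjusted p 1.52e-05). Rrm1 and Tor1a were called in neither tissue. The striatal values without WT replicate 1 were −2.56 for 1110034G24Rik (adjusted p 0.000381) and −1.24 for Gusb (adjusted p 0.00678). Of the 5 genes, 0 were called for a striatal minus cerebellar difference in log2 fold change.

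Between the WT tissues these lists varied more. Of 12 PAWR-binding genes tested, 10 were called higher and 1 lower in striatum, against 31.5% higher and 32.7% lower of all genes. Their median log2 difference was 0.47, against −0.03 over all genes. Drd2, the dopamine D2 receptor, averaged 243 ± 11.6 CPM in striatum and 0.757 ± 0.645 CPM in cerebellum. Drd2 is also one of the striatal neuron markers. Slc5a7, the choline transporter, averaged 88.3 ± 10.7 CPM in striatum and 0.317 ± 0.0774 CPM in cerebellum. Dapk1, a death-associated kinase, averaged 210 ± 24.4 CPM in striatum and 16.5 ± 2.84 CPM in cerebellum.

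Mgea5, the earlier symbol of the gene for O-GlcNAcase, which removes the sugar that OGT adds, was like Ogt higher in striatum. In WT it averaged 412 ± 18.1 CPM in striatum and 224 ± 10.4 CPM in cerebellum, a log2 difference of 0.90 (adjusted p 2.51e-06). In its list of 9 genes, 4 were higher and 2 lower in striatum. Tet1 was among the lower, at 27.0 ± 5.17 CPM in striatum and 51.4 ± 2.18 CPM in cerebellum, a log2 difference of −0.91, and Tet2 among the higher, at 0.64. Of the SET1/MLL and SIN3 subunits, 5 were higher and 8 lower in striatum. Sap30 had the most negative log2 difference of that list, −1.68, from 2.90 ± 0.921 CPM in striatum and 9.46 ± 0.759 CPM in cerebellum. Of the 18 HCF1-linked genes 4 were higher and 4 lower in striatum. Of the 25 YY1-linked genes 6 were higher and 6 lower. Of all genes, 31.5% were higher and 32.7% lower. After WT striatum replicate 1 was left out, the lower counts were 9 of 18 HCF1-linked genes and 9 of 25 YY1-linked genes. For SET1/MLL and SIN3 subunits the lower count was 9 of 17. The higher counts were 4, 6 and 6 in that order. The PAWR-binding list, with 10 higher and 1 lower, and the O-GlcNAc list, with 4 higher and 2 lower, gave the same counts without it.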

How the data were processed

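Each library has a deposited table of raw counts over 23337 gene symbols. The submitters' processing notes name HTSeq 0.6.1p1, STAR, cutadapt 1.13, DESeq2 and build mm10, without roles. STAR's version, the annotation and the strand setting were not stated. Depth is in the library totals above. Intervals are from the fits and cover the spread between libraries.

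Counts were tested with edgeR 4.0.16 in R 4.3.3, by robust quasi-likelihood with TMM factors and filterByExpr (minimum count 10, minimum total 15), over all genes of the groups compared. All 10 members passed the filter in each comparison. A call is a Benjamini-Hochberg adjusted p under 0.05. The SE is the size of the log2 fold change over the square root of F. Alternatives used DESeq2 1.42.0, voom in limma 3.58.1, other scalings and filters, covariates and left-out libraries. Leaving out WT striatum replicate 1 for the lists, markers, ranks and likeness to Thap1 was added after seeing the data.

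Genes were placed with GENCODE vM21 on GRCm38, where 89.8% of symbols matched directly, 8.23% by synonym and 1.99% remained without a match. A gene's exon length joins all its annotated exons.

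The members and lists were chosen with earlier results of these data known. All members are named. Of each list, up to 3 called genes by smallest p were eligible to be named, and the 5 genes most like Thap1 were taken by root mean square difference (log2 CPM, prior count 2). Prkrir, Thap6, Rrm1, Tor1a, Smtnl2 and Xaf1 are named beside counts, after their values were seen.

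Whether equal replicate numbers pair libraries was checked by correlating deviations from group means. In cerebellum cKO libraries 1 to 4 correlated by 0.367, 0.179, 0.102 and 0.252 with the WT library of their own number. Their highest correlations with a WT library of another number were 0.439, 0.176, 0.323 and 0.465. Only cKO replicate 2 thus correlated best with its own number, and by a small margin. The numbers come from the sample titles, and a fit with the number as a block is an alternative.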

Additional observations from a re-analysis of the deposited data

Results flagged for a closer look

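Of 20 cerebellar groups of 4 libraries, 1 per gene and genotype, 2 held a library far from the other three. Thap4 measured 16.4 CPM in WT cerebellum replicate 1, against 14.75 to 14.98 CPM in the other WT cerebellum libraries, and the gap was 0.859 of the range of the group. Hcfc1 measured 172.9 CPM in the same library, against 163.7 to 165.1 CPM in the others, a gap of 0.853 of the range. Both gaps were above Dixon's 95% critical value for 4 libraries, which chance passes in about 1 of 20 groups.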

How the results depend on the processing

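The sign of Thap1 was the same in each genotype comparison under all alternatives run. In striatum it was called (1 member) with no low-count filter (−1.37, adjusted p 0.0172), DESeq2 (−1.37, 2.91e-05), voom (−1.56, 0.00362), all 14 libraries in 1 model (−1.36, 0.00047) and the length trend removed (−1.43, 0.0228). Striatal calls over all genes numbered 153 with DESeq2, 178 with voom, 376 with all 14 libraries and 87 with the length trend removed. In cerebellum 0 members were called with DESeq2 size factors (−0.34, 0.0503), upper-quartile scaling (−0.33, 0.0520), library totals (−0.33, 0.0597), a mean of at least 1 CPM (−0.34, 0.0516), DESeq2 (−0.34, 0.0569), voom (−0.34, 0.0625), a score of Xist and Y-linked genes as covariate (−0.34, 0.0535) and all 14 libraries in 1 model (−0.35, 0.353, 251 genes called). The interaction of Thap1 was called (1 member) with DESeq2 (−1.02, 0.00428; 228 genes) and voom (−1.20, 0.0222).

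Replicate numbers as a block changed no cerebellar member call (Thap1 −0.33, adjusted p 0.0464). In striatum same-number correlations were 0.280, 0.163 and 0.0988, and each cKO library correlated best with the WT library of its own number. Replicate 1 was the male library of both striatal groups, so pairing and sex cannot be told apart for that number. With the block, 15 genes were called in striatum (Thap1 −1.40, adjusted p 0.146). The block left 1 gene called in the interaction (Thap1 −1.03, 0.432), and in WT tissue it put Pawr at 0.81 (0.0612). In both of these fits it joins striatum and cerebellum libraries of the same genotype and number. Replicate 2 was female in striatum and male in cerebellum in both genotypes, so that number cannot mark the same animal across tissues. Same-number correlations between tissues were 0.237, −0.136 and 0.120 in WT and 0.382, −0.152 and 0.170 in cKO. These fits are therefore not paired by animal.

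Leaving out 1 library, Thap1 ranged from −1.66 to −1.15 in striatum, from −0.40 to −0.27 in cerebellum and from −1.30 to −0.80 in the interaction, with 0 to 1 members called in each. Over all genes, calls ranged from 3 (without cKO striatum replicate 1 or 3) to 122 (without WT replicate 1) in striatum, with 12 without WT replicate 3 or cKO replicate 2. They ranged from 739 to 1165 in cerebellum (739 without WT replicate 3, 744 without cKO replicate 2), from 17 to 193 in the interaction and from 8744 to 10849 between WT tissues, where 5 to 6 members were called.

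Uncalled values that changed sign were Hcfc1 (0.072 with voom, 0.0033 with the length trend removed, −0.16 to 0.091 over left-out libraries), Thap11 (−0.012, length) and Pawr (−0.21 to 0.19) in striatum. In cerebellum they were Thap11 (−0.0032 with all 14 libraries, −0.010 for length, −0.0082 to 0.039) and Thap3 (−0.028 to 0.0057). In the interaction they were Thap4 (−0.026 with voom, −0.049 to 0.17) and Hcfc1 (0.12 with voom, 0.043 for length, −0.11 to 0.13). Between WT tissues they were Hcfc1 (−0.00036 on library totals, −0.0015 to 0.26), Yy1 (−0.087 on library totals), Thap11 (0.013 with voom, 0.13 for length, −0.14 to 0.026) and Thap7 (0.075 for length). With cKO in place of WT libraries, chosen after seeing the data, Thap1 (−0.23), Thap7 (0.18) and Thap11 (0.076) changed sign. The cause was not tested.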

Other observations

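Mgea5, the O-GlcNAcase gene, was looked at between genotypes after its values were seen. It measured 341 to 387 CPM in cKO striatum, against 400 to 433 CPM in WT striatum, with no overlap. Of all genes tested in striatum, 15.1% did not overlap and 7.88% were lower without overlap. Its log2 fold change of −0.22 (SE 0.090) had an adjusted p of 0.654 by edgeR's quasi-likelihood test, and without WT striatum replicate 1 it was −0.17 (SE 0.075, adjusted p 0.564). In cerebellum Mgea5 averaged 218 ± 5.54 CPM in cKO and 224 ± 10.4 CPM in WT (SD over 4 libraries each), and the log2 fold change was −0.03 (adjusted p 0.676). Prkrir averaged 104 ± 3.63 CPM in cKO striatum, 102 ± 1.03 CPM in WT striatum, 143 ± 7.38 CPM in cKO cerebellum and 146 ± 5.43 CPM in WT cerebellum.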
